A study of Mus musculus with 7 samples.

Results

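The 49 genes described here encode lysosomal enzymes, the sulfatases and the enzymes that activate them, other lysosomal proteins and components of autophagy, and they were compared between mouse cortical neurons that carried a luciferase hairpin and untransduced neurons. The genes were given as a list. A probe set (a group of short probes that reads 1 transcript) was used when the array annotation names only 1 listed gene for it, when its name does not end in _x_at, and when it reached a level of 50 on at least 1 array. 46 of the 49 genes had such a probe set, of 12315 genes with one in the whole table. *Sts* and *Optn* had no probe set that names them alone, and the 3 probe sets of *Sulf1* stayed under 50 on all arrays. When the list was made, *Sumf1* and *C9orf72* were already known to be lower in these luciferase neurons. Both are therefore described below without a test of their change. They are left out of the counts of members that passed or did not overlap and of the medians. Counts of probe sets, promoter matches, outlying arrays and sign changes include them.

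The study asked how knockdown of autism candidate genes changes neurons, and luciferase, which mice do not have, served as the target of its control hairpin. All cultures came from the cortex of C57/Bl6J embryos of day 16 and were harvested at 16 days in vitro. The luciferase neurons (4 arrays, replicates 1 to 4) received, at 2 days in vitro and for 6 hours, a lentivirus with a single hairpin in the pLL3.7_H1 plasmid, which also expresses green fluorescent protein, at an infection multiplicity of 3, and were harvested for RNA 14 days after that. The blank neurons (3 arrays, replicates 5 to 7) are given as naïve in the treatment label and stand here as untransduced, although the description of all 7 arrays, the blank ones among them, names an shRNA treatment. Virus, fluorescent protein and hairpin cannot be told apart in this comparison. The design had 4 cultures per group, and the authors left out 1 untransduced sample after quality control. The sources name randomized plates but no separate litters, and p-values here reflect the spread of these 7 cultures alone, which can be technical. The values are deposited intensities on a linear scale after robust multi-array averaging (RMA), and the blank columns were moved up by 1 row before use, because in the deposited table they sit 1 row too low. The median level of the tested probe sets was 237.4 to 241.4 on the luciferase arrays and 215.5 to 235.1 on the blank arrays.

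Lysosomes break down proteins, lipids and sugar chains with acid hydrolases. Among these, sulfatases are inactive until SUMF1, in the endoplasmic reticulum, turns a cysteine of their active site into formylglycine, and loss of SUMF1 in humans causes multiple sulfatase deficiency. Autophagy delivers cytoplasm to lysosomes: the ULK kinases start it, the lipid kinase complex of beclin 1 marks the membrane, and the ATG7, ATG12, ATG5 and ATG16L1 proteins attach LC3 and GABARAP proteins to it. TFEB is a transcription factor that activates many lysosomal and autophagy genes through sites with the core CACGTG, and neurons depend on this clearance because they do not divide.

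The promoters of 5 members are shown: both genes known to be lower, *Lamp1*, and *Atg7* and *Ctsl*. The last 2 passed the test described below and hold the CACGTG core, and *Lamp1* was picked by hand. The 5 thus do not show how the core is spread over the list. Each line gives the 250 bases before a RefSeq start of the gene in build GRCm38.p6, 5′ to 3′ on its strand, with CACGTG in capitals. A gene can have several starts, and for *Lamp1*, *Atg7* and *Ctsl* only windows with CACGTG were printed. Whether these starts are the ones used in the cultures was not tested. They lie at chr6:108185584-108185833 (minus strand) for *Sumf1*, chr4:35225837-35226086 (minus) for *C9orf72*, chr8:13158911-13159160 (plus) for *Lamp1*, chr6:114670846-114671095 (plus) for *Atg7* and chr13:64370521-64370770 (minus) for *Ctsl*.
Sumf1: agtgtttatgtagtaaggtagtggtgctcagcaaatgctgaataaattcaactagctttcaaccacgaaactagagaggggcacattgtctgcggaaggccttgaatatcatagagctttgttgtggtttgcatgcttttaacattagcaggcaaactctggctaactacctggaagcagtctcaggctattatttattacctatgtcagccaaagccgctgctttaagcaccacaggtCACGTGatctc
C9orf72: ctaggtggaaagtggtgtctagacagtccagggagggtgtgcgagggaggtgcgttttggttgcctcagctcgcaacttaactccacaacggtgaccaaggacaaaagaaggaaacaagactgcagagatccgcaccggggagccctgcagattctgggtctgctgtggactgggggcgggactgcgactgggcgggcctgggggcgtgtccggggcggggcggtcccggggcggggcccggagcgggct
Lamp1: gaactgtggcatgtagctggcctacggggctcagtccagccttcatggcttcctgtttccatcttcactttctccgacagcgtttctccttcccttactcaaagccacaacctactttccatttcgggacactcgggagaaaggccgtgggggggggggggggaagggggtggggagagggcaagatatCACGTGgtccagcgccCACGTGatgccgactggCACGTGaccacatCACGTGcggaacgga
Atg7: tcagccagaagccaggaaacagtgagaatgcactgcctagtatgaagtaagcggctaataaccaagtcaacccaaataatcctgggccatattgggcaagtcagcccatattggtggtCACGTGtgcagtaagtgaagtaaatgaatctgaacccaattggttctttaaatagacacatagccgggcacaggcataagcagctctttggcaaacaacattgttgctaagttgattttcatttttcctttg
Ctsl: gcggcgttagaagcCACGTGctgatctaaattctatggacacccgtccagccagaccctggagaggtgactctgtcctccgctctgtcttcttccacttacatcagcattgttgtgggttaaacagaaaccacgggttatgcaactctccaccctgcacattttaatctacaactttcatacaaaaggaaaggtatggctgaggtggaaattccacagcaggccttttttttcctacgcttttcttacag
*Sumf1* had 1 copy, which starts at position -11 counted from the start that follows its 250 bases. *Lamp1* had 4, starting from position -61 to -15. *Atg7* had 1 at -132 and *Ctsl* had 1 at -236, while the window of *C9orf72* held none. For the shares, the whole RefSeq window was searched, from 250 bases before the start to 50 after it. Such windows were given for 39 of the 49 members, 45 windows in all. A gene was counted when any of its windows held the motif. CACGTG, which reads alike on both strands, was present in 15 of these 39 genes (38.5%), against 8.09% of 27025 genes with a window. TCACGTG, searched on both strands and containing the shorter motif, was present in 13 of the 39 (33.3%), against 4.29%. By role, CACGTG was found in the window of 6 of 12 other hydrolases, 3 of 8 other lysosomal genes, 2 of 5 sulfatases, 3 of 12 autophagy genes and 1 of the 2 formylglycine enzymes. These are matches of letters and not measured binding sites.

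*Sumf1*, which encodes the activating enzyme, was read at 63.2, 64.5, 65.7 and 59.8 on the luciferase arrays (63.3 ± 2.56, SD, n = 4). On the blank arrays it was read at 157.3, 167.7 and 191.6 (172.2 ± 17.6, SD, n = 3). The groups did not overlap, the luciferase mean was 36.7% of the blank mean, and the log2 change was -1.44 (standard error 0.085). Its other probe set gave 65.2 ± 7.90 and 159.6 ± 16.1 (SD, n = 4 and n = 3), a log2 change of -1.29. *Sumf2*, the paralog that lacks the activating function, was read at 182.2 ± 14.4 in luciferase neurons and 182.1 ± 7.72 in blank neurons (SD, n = 4 and n = 3). Its log2 change was -0.0017, with a 95% interval from -0.19 to 0.19 and an adjusted p of 0.99 from limma, and the arrays of both groups overlapped.

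**Figure D1:**
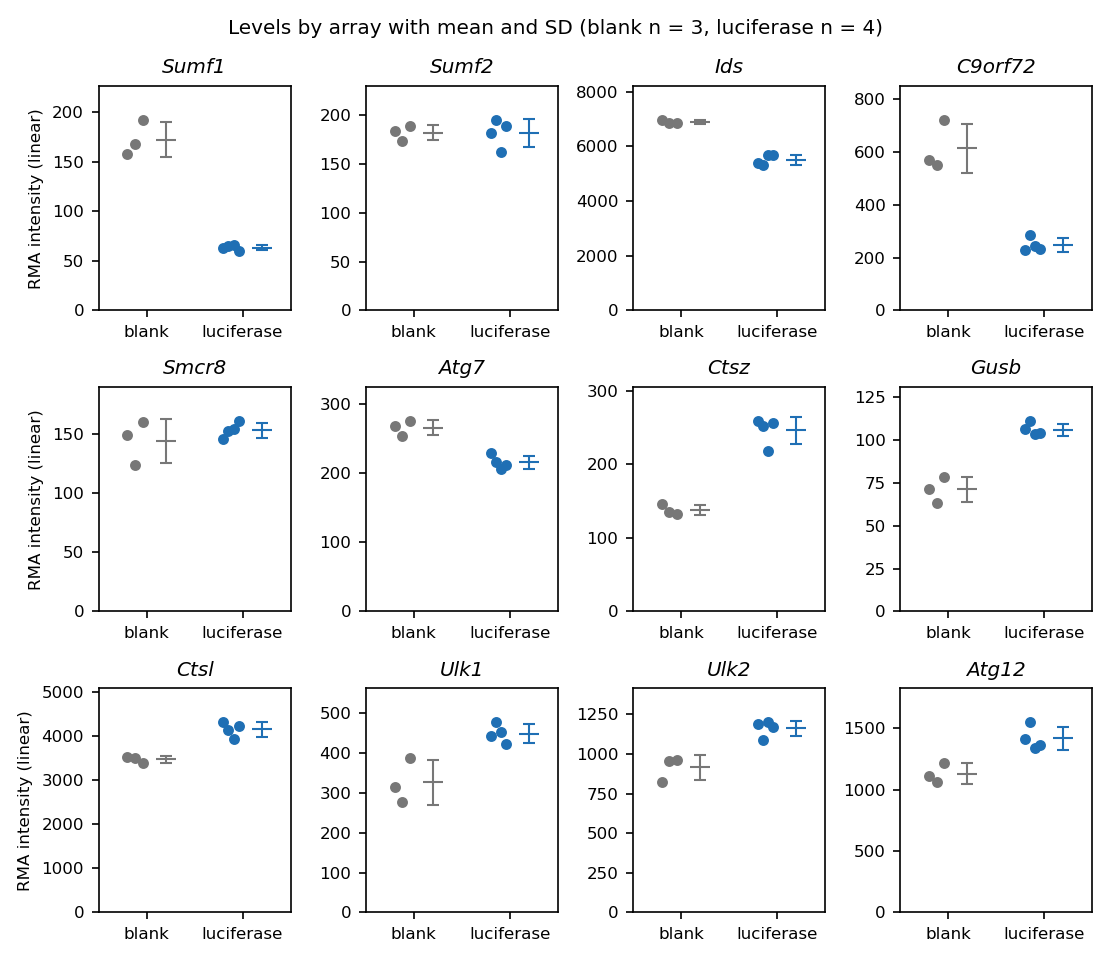
Level of 12 genes on each array (RMA intensity, linear axis from 0), in grey for blank (n = 3) and blue for luciferase (n = 4), with points for arrays and bars for mean ± SD. *Sumf1* and *C9orf72* lie well apart between the groups while *Sumf2* and *Smcr8* overlap.

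Among the sulfatases themselves, 1 of 6 tested genes passed the test in the lower direction and 0 in the higher direction. A gene passed at an adjusted p of at most 0.05 from limma, which 16.2% of all 22748 tested probe sets did in the higher and 8.26% in the lower direction. A call that was lost, below, means that this pass was lost, whatever the size of the change. Of all tested probe sets, 2.9% in the higher and 1.29% in the lower direction passed and also changed by at least 1.5-fold. In either direction 24.5% passed, and 4.19% passed with at least a 1.5-fold change. *Ids*, which removes sulfate from heparan and dermatan sulfate, was read at 5387, 5307, 5669 and 5682 on the luciferase arrays and at 6958, 6866 and 6848 on the blank arrays. All luciferase arrays lay below all blank arrays, and the gene fell by 0.32 on the log2 scale (standard error 0.067, adjusted p = 0.0099 from limma). The 3 other tested probe sets of *Ids*, all at lower levels, changed by -0.15, 0.059 and -0.18 and did not pass, so the fall rests on 1 probe set.

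*Arsb*, which removes sulfate from dermatan and chondroitin sulfate, had luciferase arrays at 1214, 1205, 1161 and 1235 and blank arrays at 1061, 1033 and 1053. The groups did not overlap, but the log2 change of 0.20 had an adjusted p of 0.054 from limma and did not pass. It passed in 5 alternatives (lowest adjusted p 0.023 from limma). These were a minimum of 100, trend and robust eBayes, array weights, a pseudocount of 16 and the mean of its probe sets. Its other tested probe set stood at 0.22 and did not pass (0.096). *Galns*, which acts on keratan sulfate, was read at 131.4 ± 11.9 against 156.2 ± 6.31 (SD, n = 4 and n = 3), also without overlap, or -0.25 on the log2 scale, and did not pass (adjusted p = 0.061 from limma). It passed with quantile normalization (adjusted p = 0.025 from limma) and after median centring of each array (0.019). *Arsa*, the sulfatase of sulfatide, stood at 0.088 on the log2 scale, *Sgsh*, a heparan sulfatase, at 0.053 and the extracellular *Sulf2* at -0.011. The last 3 had overlapping groups and 95% intervals of the log2 change that reached from -0.28 to 0.31. The median log2 change of the 6 sulfatases was 0.021, against 0.056 for all tested probe sets.

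Of the 13 other hydrolases, 3 passed in the higher (23.1%) and 0 in the lower direction, against 16.2% and 8.26% of all tested probe sets. The median log2 change of the 13 was 0.12, against 0.056 for all tested probe sets. All 6 proteases had a positive log2 change, and of the 6 glycosidases 3 had one. *Ctsz*, a cysteine carboxypeptidase, was read at 258.4, 251.6, 218.2 and 255.7 on the luciferase arrays and at 145.3, 135.5 and 131.9 on the blank arrays. The groups did not overlap, and *Ctsz* rose 1.79-fold (0.84 on the log2 scale with a standard error of 0.084, adjusted p = 4.4e-04 from limma). It was the 1 gene of the 44 tested members that passed with a change of at least 1.5-fold. Its other probe set rose as well, by 0.66 (adjusted p = 0.011 from limma). *Gusb*, the beta-glucuronidase, was read at 106.3, 111.0, 103.4 and 103.9 on the luciferase arrays and at 71.6, 63.5 and 78.5 on the blank arrays. Without overlap it rose by 0.58 on the log2 scale (standard error 0.085, adjusted p = 0.0024 from limma), and its dimmer probe set stood at 0.17 and did not pass. *Ctsl*, a cysteine endopeptidase, was read at 4318, 4138, 3931 and 4229 against 3529, 3512 and 3390.1. It rose by 0.26 (standard error 0.069, adjusted p = 0.027 from limma), and the call was lost without luciferase replicate 1, 2 or 4 or blank replicate 5 or 6 (adjusted p from 0.059 to 0.069) and after median centring (0.13) or with no filter on level (0.062). Its other probe set, at a level near 38, stood at 0.033 (adjusted p = 0.91 from limma), and the mean of both did not pass (0.31).

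The remaining hydrolases did not pass. *Ctsa*, which also protects beta-galactosidase and neuraminidase, stood at 0.22 on the log2 scale (adjusted p = 0.072 from limma) and *Ppt1*, the thioesterase that removes palmitate from proteins, 0.23 (0.095). Both had luciferase arrays above all blank arrays, as had *Ctsb* at 0.12 and *Tpp1*, the tripeptidyl peptidase, at 0.11. *Ctsd*, the main aspartic protease, was read at 1823 ± 124 and 1774 ± 70.8 (SD, n = 4 and n = 3). The glycosidases *Gaa*, which degrades glycogen, *Hexa* and *Glb1*, which act on gangliosides, stood at -0.18, -0.11 and -0.036, and *Gla* and *Neu1* at 0.058 and 0.17, all with overlapping groups.

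**Figure D2:**
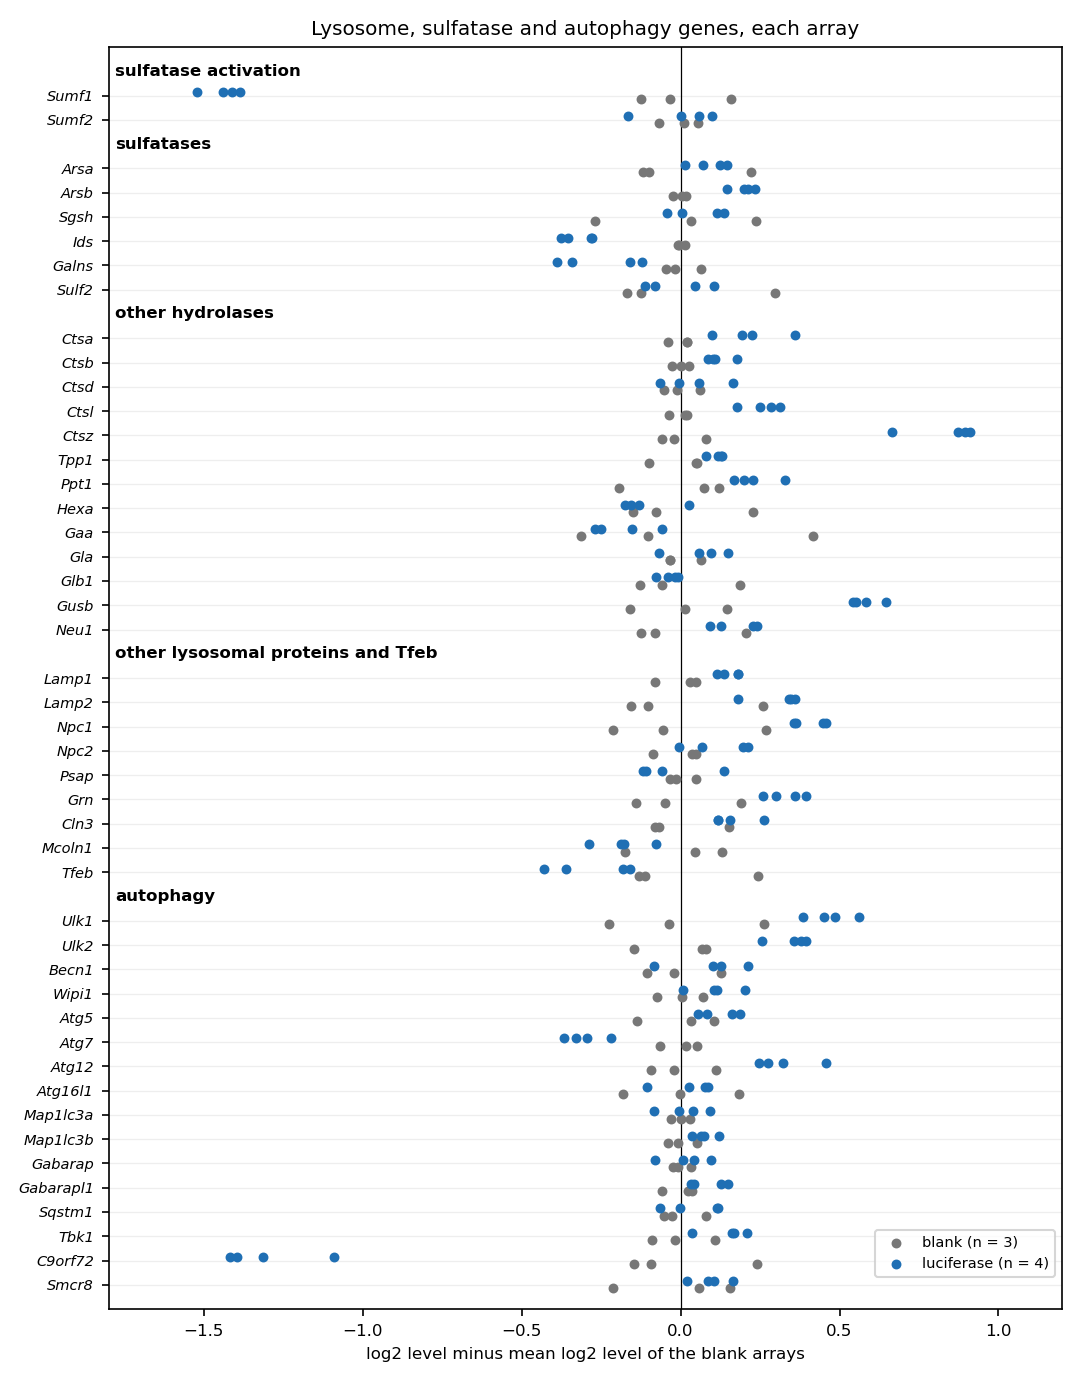
log2 level of each of the 46 members on each array minus the mean log2 level of the blank arrays (horizontal axis), grouped by role, with blank arrays in grey (n = 3) and luciferase arrays in blue (n = 4). *Sumf1* and *C9orf72* lie below -1 and *Ctsz* stands highest at a mean of 0.84, while most others lie close to the blank arrays.

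Of the 9 other lysosomal genes, which include *Tfeb*, 2 passed in the higher (22.2%) and 0 in the lower direction. Of all tested probe sets 16.2% and 8.26% did. The median log2 change of the 9 was 0.15, against 0.056 for all tested probe sets. *Npc1*, which moves cholesterol out of the lysosome, was read at 167.0, 178.2, 177.2 and 166.5 on the luciferase arrays and at 125.1, 112.0 and 156.5 on the blank arrays. It rose by 0.41 (standard error 0.11, adjusted p = 0.026 from limma), without overlap, and the call was lost without luciferase replicate 2 or 3 or blank replicate 5 or 6 (adjusted p from 0.061 to 0.089). *Npc2*, its soluble partner, stood at 0.12 with overlapping groups. *Grn*, which encodes progranulin, was read at 716.7, 652.2, 700.4 and 671.8 against 527.7, 494.5 and 622.0. It rose by 0.33 (standard error 0.091, adjusted p = 0.029 from limma), and the call was lost without luciferase replicate 1, 3 or 4 or blank replicate 5 or 6 (adjusted p from 0.053 to 0.10), after median centring (0.055) and with no filter on level (0.051).

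*Lamp2*, a membrane glycoprotein of the lysosome, stood at 0.31 on the log2 scale for its brightest probe set (adjusted p = 0.064 from limma), with luciferase arrays from 1257 to 1425 and blank arrays from 996 to 1327. Of its 3 other tested probe sets, 2 passed, with rises of 0.41 and 0.44 (adjusted p = 0.012 and 0.0089 from limma), and the brightest one passed without blank replicate 7 (0.44, adjusted p = 0.0064). *Lamp1* stood at 0.15 with luciferase arrays from 3882 to 4059 above blank arrays from 3390.4 to 3711, and did not pass (adjusted p = 0.14 from limma). *Cln3*, a membrane protein mutated in Batten disease, had probe sets that moved apart: the brighter one stood at 0.16 (adjusted p = 0.18 from limma) and the dimmer one fell by 0.43 (0.015). *Tfeb* was read at 103.0 ± 9.42 against 125.8 ± 19.1 (SD, n = 4 and n = 3), or -0.28 on the log2 scale (adjusted p = 0.094 from limma), and all its luciferase arrays lay below the blank arrays. *Mcoln1*, a calcium channel of the lysosome, stood at -0.18 and passed with quantile normalization (-0.27, adjusted p = 0.032 from limma) and after median centring (-0.28, 0.031). *Psap*, the precursor of the saposins, stood at -0.038.

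**Figure D3:**
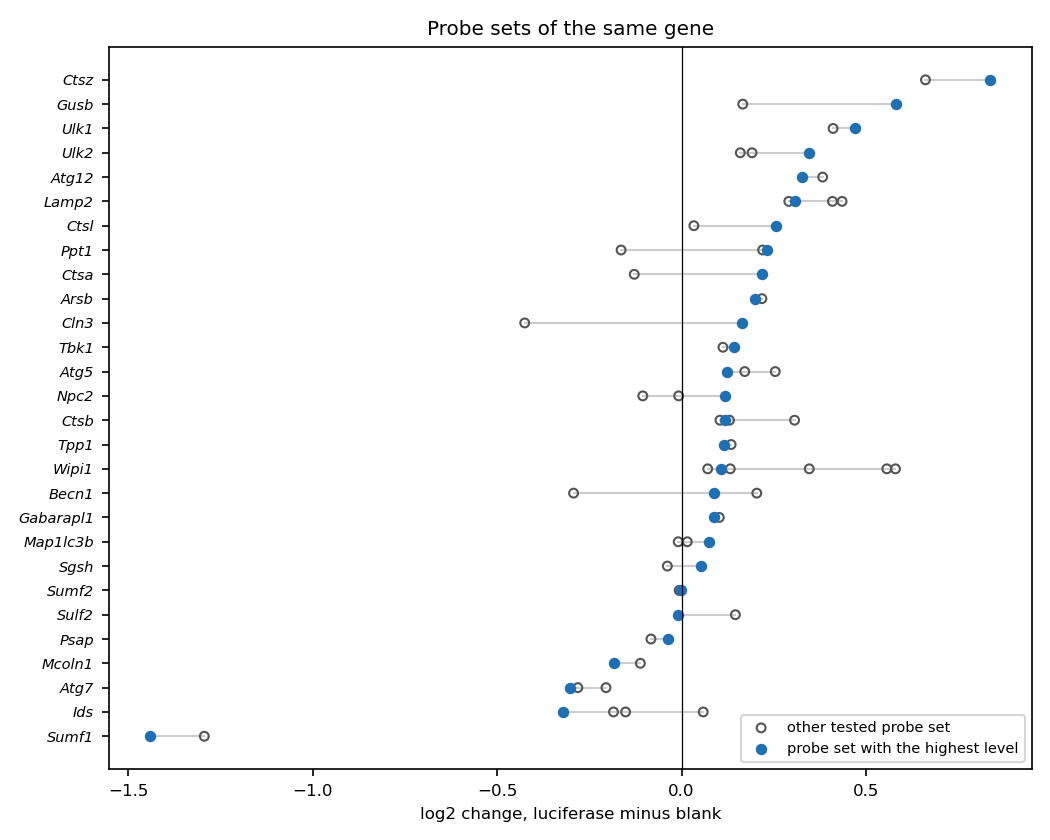
log2 change, luciferase minus blank (horizontal axis), of each tested probe set of the 28 members with several, with the probe set of the highest level filled and the others open. In 9 of these genes the probe sets differ in sign. In *Ctsz*, *Ulk1* and *Sumf1* they have the same sign, with ranges of 0.18, 0.059 and 0.15. The ranges of the 28 genes run from 0.0049 (*Sumf2*) to 0.59 (*Cln3*).

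Of the 15 tested autophagy genes, 3 passed in the higher (20%) and 1 in the lower direction (6.67%), near the 16.2% and 8.26% of all tested probe sets. The median log2 change of the 15 was 0.089, against 0.056 for all tested probe sets. Both kinases that start autophagy rose. *Ulk1* was read at 441.7, 476.6, 452.9 and 421.8 on the luciferase arrays and at 315.0, 276.6 and 387.6 on the blank arrays. It rose by 0.47 (standard error 0.11, adjusted p = 0.016 from limma), without overlap, its other probe set rose by 0.41 (0.0074), and the call of the first was lost without blank replicate 5 or 6 (0.053 and 0.054). *Ulk2* was read at 1186, 1090.4, 1200.3 and 1169 against 825, 956 and 965. It rose by 0.35 (standard error 0.082, adjusted p = 0.016 from limma), and the call was lost without blank replicate 5 (0.063) and after median centring (0.053), and its dimmer probe sets stood at 0.16 and 0.19. *Becn1* stood at 0.089 and *Wipi1*, which binds the membrane lipid made by its complex, at 0.11. *Wipi1* has 6 tested probe sets, all with a positive change, of which 2 passed with rises of 0.35 and 0.58 (adjusted p = 0.035 and 0.0080 from limma).

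The conjugation genes went both ways. *Atg7*, the enzyme that activates ATG12 and the LC3 proteins, was read at 228.5, 216.5, 206.3 and 211.4 on the luciferase arrays and at 268.8, 253.8 and 275.2 on the blank arrays. It fell by 0.30 (standard error 0.072, adjusted p = 0.017 from limma), without overlap, a second probe set fell by 0.28 (0.036), the dimmest tested one stood at -0.20 and did not pass (0.076), and the call of the first was lost without blank replicate 5 (0.057). *Atg12* was read at 1409.9, 1549, 1341 and 1367 against 1113, 1059 and 1220.4. It rose by 0.33 (standard error 0.083, adjusted p = 0.022 from limma), its other probe set rose by 0.38 (0.017), and the call of the first was lost without luciferase replicate 2 or blank replicate 5 or 6 (0.055 to 0.078). *Atg5* and *Atg16l1* stood at 0.12 and 0.021. The 4 tested genes of the LC3 and GABARAP family lay between 0.010 (*Map1lc3a*) and 0.089 (*Gabarapl1*), and the groups overlapped in all 4. *Sqstm1*, a cargo receptor, stood at 0.042 and *Tbk1*, a kinase that acts on such receptors, at 0.14, and neither passed.

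*C9orf72*, whose protein forms a complex with SMCR8 and WDR41 that acts in autophagy and at lysosomes, was read at 227.8, 285.6, 244.9 and 231.5 on the luciferase arrays and at 570.7, 549.7 and 719.6 on the blank arrays. The luciferase mean was 40.4% of the blank mean, without overlap, and the log2 change was -1.30 (standard error 0.12). It had 1 probe set. *Smcr8* was read at 153.3 ± 6.28 and 144.4 ± 18.5 (SD, n = 4 and n = 3), a log2 change of 0.093 with a 95% interval from -0.12 to 0.31 (adjusted p = 0.50 from limma). *Wdr41*, which is not on the list and was picked after its value was seen, fell by 0.30 (adjusted p = 0.020 from limma), and the call was lost without luciferase replicate 1 or 3 or blank replicate 6 (0.051 to 0.068).

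Over the 44 tested members, 8 passed in the higher direction (18.2%) and 2 in the lower (4.55%), against 16.2% and 8.26% of all tested probe sets and 16.9% and 8.55% when each of the 12315 genes was counted once. The groups did not overlap in 14 of the 44 members in the higher and 4 in the lower direction. Of all tested probe sets 22.5% and 12.3% did not overlap, and of genes counted once 24.6% and 13.0%. The shares past the test lie near those of all probe sets. Neither kind of count gives a result about the members as a whole. The median log2 change of the 44 was 0.091, and their median level against the blank mean lay between 0.070 and 0.12 on the luciferase arrays and between -0.043 and 0.068 on the blank arrays. The count of higher members was 2 without blank replicate 5, 3 without blank replicate 6 and 5 without luciferase replicate 2, and the count of lower members was 1 without blank replicate 5. In the fit as a whole 66.2% of probe sets past the test were higher, against 49.1% with quantile normalization, 56.8% with no filter on level and 37.3% after median centring.

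The members with CACGTG in the promoter window, without *Sumf1*, had a median log2 change of 0.073 (14 genes, 1 higher and 1 lower past the test), and those with a window without it, leaving out *C9orf72*, 0.11 (22 genes, 5 higher and 1 lower). The difference between these groups of genes was not tested. Of the 10 members past the test, *Ctsz*, *Gusb*, *Ulk1*, *Ulk2*, *Grn* and *Ids* had no match, and *Ctsl* and *Atg7* had 1 each. No window was given for *Npc1* and *Atg12*, which also passed. *Lamp1*, with 4, was among the members with a match that did not pass.

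Other genes of the same pathways were counted from lists drawn up for this comparison, and no list was tested as a set. Of all genes counted once, 16.9% passed in the higher and 8.55% in the lower direction. The shares were 26.1% and 4.35% for further hydrolases and cofactors, and 33.3% each for the 3 tested further sulfatases. Of 23 tested further hydrolases and cofactors, 6 rose and 1 fell, and over the alternatives 4 to 9 were higher and 1 to 2 lower. *Ctsc*, a dipeptidyl peptidase, rose by 0.96 (adjusted p = 7.0e-04 from limma), *Ctso* by 0.66 (9.1e-04) and *Galc*, the enzyme of galactosylceramide, by 0.44 (0.0048, and 0.15 for its dimmest probe set), while *Lipa*, the acid lipase, fell by 0.50 (0.0063). *Man2b1*, the acid mannosidase, picked after its value was seen, rose by 0.28 (0.022), but its dimmest probe set stood at -0.24. Its call was lost with quantile normalization (adjusted p = 0.090 from limma), median centring or the mean of its probe sets (0.11 and 0.88), and without luciferase replicate 1 or 2 or blank replicate 5 (0.057 to 0.067). Of 3 tested further sulfatases, *Arsi* fell by 0.43 (adjusted p = 0.019 from limma), a call lost without blank replicate 6 (0.066), and *Arsk* rose by 0.34 (0.035), a call lost without luciferase replicate 1, 3 or 4 or blank replicate 5 or 6 (0.052 to 0.12), with quantile normalization (0.072) and after median centring (0.11).

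Of 17 tested subunits of the vacuolar ATPase, which acidifies the lysosome, 0 rose and 1 fell (*Atp6v1d*, by 0.27, adjusted p = 0.027 from limma, a call lost without luciferase replicate 2 or 4 or blank replicate 5 or 6, 0.064 to 0.069). Of 15 genes of the lysosomal membrane and of sorting, 2 rose and 1 fell (13.3% and 6.67%). The shares were 0% and 5.88% for the vacuolar ATPase and 25% and 7.14% for the further autophagy genes below. They were 11.8% and 0% for the mTORC1 and TFEB list, against 16.9% and 8.55% of all genes counted once. *Gnptg*, a subunit of the enzyme that makes the mannose 6-phosphate tag, rose by 0.33 (adjusted p = 0.016 from limma), a call lost without blank replicate 6 (0.057). *Tmem192* rose by 0.22 (0.044), a call lost in 10 alternatives, among them quantile normalization (0.21). The one that fell was *Scarb2*, the receptor that carries glucocerebrosidase to the lysosome, by 0.65 (adjusted p = 7.5e-04 from limma), and its dimmest probe set stood at -0.15 and did not pass. Of 28 further autophagy genes, 7 rose and 2 fell, among them *Rb1cc1* (0.36, adjusted p = 0.0092 from limma) and *Atg13* (0.34, 0.016), partners of the ULK kinases, *Atg14* (0.40, 0.016) of the beclin 1 complex and *Wdr45* (0.39, 0.0045). *Uvrag*, a beclin 1 partner picked after its value was seen, fell by 0.25 (0.040), a call lost without any single luciferase array, blank replicate 5 or blank replicate 7 (0.066 to 0.096). *Pik3r4*, *Wipi2* and *Pik3c3*, also picked after their values were seen, rose by 0.33, 0.30 and 0.29 (adjusted p = 0.030, 0.049 and 0.033 from limma), and all 3 calls were lost with no filter on level, quantile normalization or centring and without luciferase replicate 2 or 3 or blank replicate 5 or 6. The count of further autophagy genes that were higher was 2 without blank replicate 6, 3 without blank replicate 5 and 4 without luciferase replicate 2 or 3, with quantile normalization, with centring or with no filter, and it was 11 with array weights. The lower count was 0 without luciferase replicate 1 or 3, 1 without any other single array and 4 with centring. The calls of *Atg13* and *Atg14* were lost without blank replicate 6 (0.053 and 0.059) and that of *Atg14* also without blank replicate 5 (0.063). Of 17 genes of mTORC1 and the TFEB family, 2 rose (*Flcn* by 0.38 and *Rragc* by 0.32, adjusted p = 0.012 and 0.019 from limma) and 0 fell, and both calls were lost without blank replicate 5 (0.051 and 0.060), that of *Flcn* also with _x_at probe sets kept (0.29) and that of *Rragc* also without blank replicate 6 (0.068). With quantile normalization or centring 3 genes of this list were lower. Over the alternatives the vacuolar ATPase had 0 to 3 higher and 0 to 4 lower, the membrane and sorting genes 0 to 5 and 0 to 2, and the mTORC1 and TFEB list 0 to 7 and 0 to 3.

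**Figure D4:**
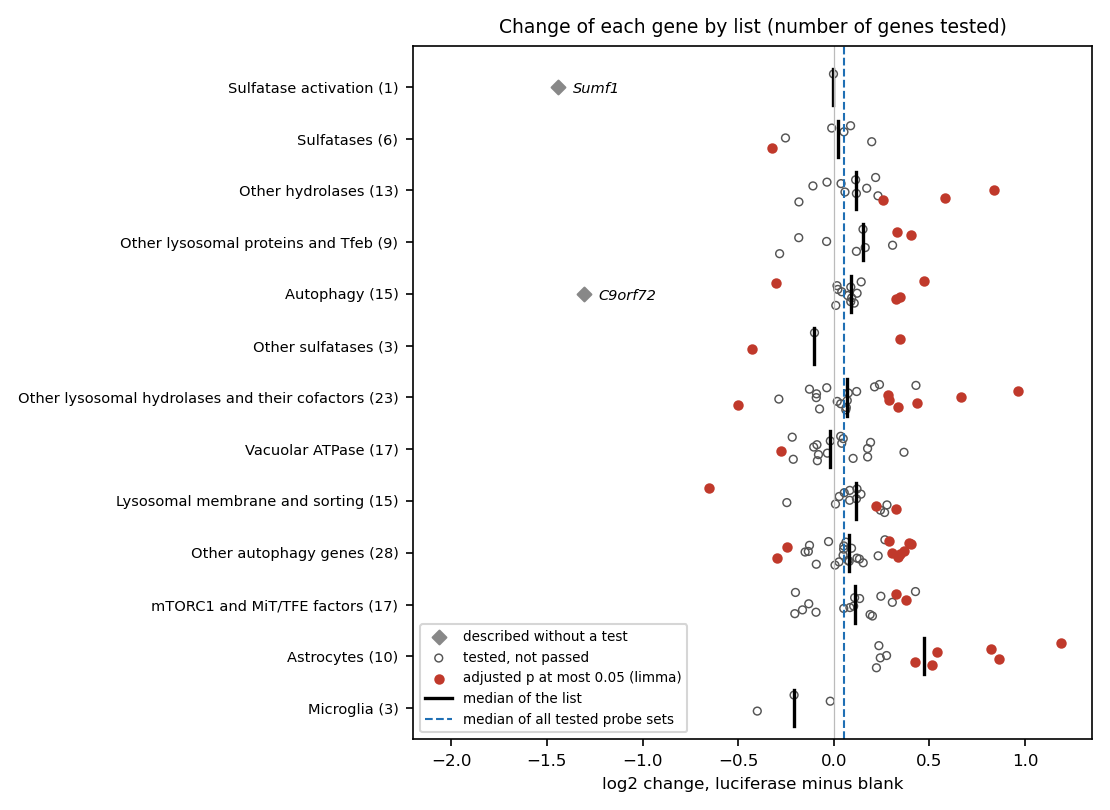
log2 change, luciferase minus blank (horizontal axis), of each tested gene by list, with genes past an adjusted p of 0.05 filled in red, list medians as bars, and *Sumf1* and *C9orf72*, which were not tested, as diamonds. The dashed line is the median of all tested probe sets, 0.056, and the bars of the 4 tested roles lie between 0.021 and 0.15.

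Markers of cell types were counted in the same way, and those of astrocytes rose in the largest share. Of 10 tested astrocyte markers, 6 rose and 0 fell (60% and 0%, against 16.9% and 8.55% of all genes counted once). *Aldoc* and *Glul*, the brightest of the 10, stood at 0.24 and 0.22 and did not pass. The 6 that rose were *Gfap* (1.19), *Aldh1l1* (0.86), *Aqp4* (0.82), *Gja1* (0.54), *Slc1a2* (0.51) and *S100b* (0.43). Their adjusted p ran from 2.4e-04 to 0.038 from limma, and these 6 were picked after their values were seen. The summed level of the 10 was 31102 to 33801 on the luciferase arrays and 23901 to 26364 on the blank arrays. Of 10 microglia markers, 7 stayed under 50 on all arrays (*Aif1*, *Cx3cr1*, *Itgam*, *Tyrobp*, *C1qa*, *P2ry12* and *Ptprc*), 0 of the 3 tested passed, and the summed level of those 3 was 225.2 to 257.4 and 251.7 to 325.4. The brightest of these 3, *Cd68* and *Csf1r*, stood at -0.40 and -0.21. Of 8 neuronal markers 1 rose (*Slc17a7*) and 1 fell (*Nefl*), or 12.5% each, and *Snap25* and *Syt1*, the brightest, stood at 0.068 and 0.19 without passing. Of 4 tested vascular and meningeal markers 1 rose (*Pdgfrb*) and 2 fell (*Dcn* and *Col1a2*), or 25% and 50%, with a summed level of 518.1 to 704.3 and 918.9 to 1075. Of 6 of the oligodendrocyte lineage 1 rose (*Mbp*), or 16.7%. *Olig1* and *Pdgfra*, the brightest of that lineage, stood at 0.036 and 0.067 without passing. *Slc17a7*, *Nefl*, *Col1a2* and *Mbp* were picked after their values were seen. Over the alternatives 4 to 9 astrocyte markers were higher and 0 lower. The count of higher neuronal markers was 0 without any single array except blank replicate 7, and that of the oligodendrocyte lineage was 0 without blank replicate 6. Without blank replicate 6 or with array weights 1 microglia marker was lower, and without luciferase replicate 2 or 4 or blank replicate 5 or 6 only 1 vascular marker was. More or fewer cells of a type and more or less RNA per cell cannot be told apart in these bulk cultures. The part of these markers in the changes of the members was not tested.

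The level filter of 50 left out 19 of the 122 probe sets that name 1 member alone. The closest outside were probe sets of *Arsb* (highest level 49.8) and *Smcr8* (48.7), and the closest inside were those of *Ctsl* (51.2) and *Gusb* (60.7).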

How the data were processed

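RNA from 7 cultures was hybridised to Affymetrix mouse arrays. The authors normalized the scans with RMA and deposited intensity values on a linear scale. Its version, and which arrays were normalized together, were not given in the sources used here. The labels name Trizol and the methods an RNeasy kit for extraction. Of 45101 probe sets, 64 controls and 2441 with _x_at were left out, and 22748 of the remaining 42596 reached 50 on at least 1 array. The blank columns were moved up by 1 row: over all moves from -3 to 3, the log2 group means had r = 0.995 after this move and 0.376 to 0.421 otherwise. The order of the controls was not settled. The table held 0 columns of other samples. Pearson r between arrays of 1 group was 0.989 to 0.996 and between groups 0.977 to 0.985.

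A linear model on the log2 scale was fitted in R 4.3.3 with limma 3.58.1, without covariates and with moderation by eBayes, and p-values were adjusted after Benjamini-Hochberg over all 22748 probe sets. The fit was first tested on simulated data. Tables were handled in Python 3.11.15 with pandas 2.3.3. The probe set with the highest mean over the arrays stood for a gene. All 49 members, up to 4 passed genes of each further list by size of change and up to 2 markers per cell type by level were to be named. Other genes named with a change are marked as picked after their values were seen. The members and lists were chosen with earlier results of these data known. Alternatives were other level filters, quantile normalization, median centring, trend and robust eBayes, array weights, log2(value + 16), _x_at probe sets kept, other choices of probe set and leaving out each array. Promoter windows are RefSeq sequences of GRCm38.p6. A search of the protein sequences for the sulfatase signature was not run. The number of arrays limits the precision.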

Additional observations from a re-analysis of the deposited data

Results flagged for a closer look

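Of the 46 members, 2 had a luciferase array far from the other 3 on Dixon's gap over range. *Ctsz* was read at 218.2 on luciferase replicate 3, against 251.6 to 258.4 on the others, still above all blank arrays. *Lamp2* was read at 1257 on luciferase replicate 4, against 1404 to 1425, inside the range of the blank arrays. Chance flags about 1 in 20 groups.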

How the results depend on the processing

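No paired analysis was possible because the luciferase and blank arrays share no replicate numbers. Of the 10 members past the test, 1 (*Ctsz*) kept its call in every alternative, 12 others passed under at least 1, and 21 members changed sign somewhere. The dimmest probe set reversed *Cln3* (-0.43, adjusted p = 0.015 from limma) and *Man2b1* (-0.24, 0.29). Over the 44 members, the count of higher genes was 5 with median centring and 17 with array weights, that of lower genes 4 with quantile normalization or centring and 1 with the dimmest probe sets, and the median 0.040 with quantile normalization, -0.0047 with centring and 0.040 with the dimmest probe sets. For sulfatases, 1 was higher with a minimum of 100, trend and robust eBayes, a pseudocount of 16 or the gene mean and 2 with array weights, 2 were lower with quantile normalization, centring or array weights and 0 with the dimmest probe sets, and the median was -0.075 with centring. For other hydrolases, 5 were higher with array weights and 1 with the dimmest probe sets, and the median was 0.073 with quantile normalization, 0.022 with centring and 0.038 with the dimmest probe sets. For other lysosomal genes, 1 was higher with no filter or centring, 4 with trend and robust eBayes and 5 with array weights, 1 was lower with quantile normalization, centring or the dimmest probe sets, and the median was 0.057 with centring, 0.0017 with the gene mean and -0.0079 with the dimmest probe sets. For autophagy, 5 were higher with array weights and 0 lower with the dimmest probe sets, and the median was 0.038 with quantile normalization and -0.0070 with centring. Leaving out 1 array in turn gave 2 to 11 higher, 1 to 2 lower and a median of 0.086 to 0.14 over the 44; 0 to 0, 1 to 1 and -0.089 to 0.15 for sulfatases; 2 to 4, 0 to 0 and 0.11 to 0.13 for other hydrolases; 0 to 4, 0 to 0 and 0.12 to 0.18 for other lysosomal genes; and 0 to 3, 0 to 1 and 0.075 to 0.14 for autophagy. The cause of these shifts was not tested. The median change of all probe sets was 0.056, and 0.00018, -0.040 and -0.022 with quantile normalization, centring and no filter.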
